A study of Mus musculus with 12 samples.

Results

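The liver makes most of the proteins of the complement cascade and of blood coagulation. Of these, 39 genes were examined, 17 of complement and 22 of coagulation and fibrinolysis, among 14911 genes measured on the arrays. They were chosen by function around one of them, C8b, whose higher signal in null livers prompted the list, and the question was whether C8a, C8g and the other factors shared it. The values of C8b between genotypes are therefore given as a description, with no test. The other members were also chosen with earlier results of these data known, so counts of members between genotypes are descriptions too. All 39 genes passed the filter on dim probes, so none is missing from the main counts of differences below. Counts of genes without overlap leave out C6 and F2 in comparisons that include an array whose spot was left out for them.

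Liver RNA of male mice was hybridised to 12 Agilent arrays with 2 colours each, 3 arrays to a group. The 4 groups were C57BL6/J wild-type mice on a low-fat diet, wild-type mice on a high-fat diet, Cyp1b1 null mice on a low-fat diet and Cyp1b1 null mice on a high-fat diet. Cyp1b1 encodes a cytochrome P450, and the strain behind the null allele is given only in the series title, which names C57BL6/J for all livers. Mice went from weaning at 3 weeks onto food with 10% or 60% of fat and were killed at 14 weeks. Samples carried Cy3, and the same pool of liver RNA from wild-type mice on the low-fat diet lay in Cy5 on every array. Dyes were not swapped. A value below is the log2 ratio of sample over that pool, so a difference of 1 is a doubling. The labels speak of 3 samples pooled for each array but do not say whether each pool was of different mice. The p-values therefore describe the spread between these arrays, which may be technical.

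Complement is a chain of plasma proteases and their substrates that marks and kills microbes. The classical, lectin and alternative routes meet at C3 and C5, and the terminal components then join: C5b, C6, C7, the three-chain protein C8 and many copies of C9 form a pore in the target membrane. Coagulation is a similar protease chain, started by tissue factor with factor VII or by the contact system, that ends with thrombin cutting fibrinogen to fibrin. In mice the terminal components are known to circulate at lower levels in females than in males.

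The label calls the tissue liver hepatocytes. All 6 hepatocyte markers listed, such as Alb and Ttr, were well above background on all 12 arrays, and so were all 7 Kupffer cell, all 6 sinusoidal endothelial, all 6 stellate cell and all 5 bile duct markers, so the RNA was not of hepatocytes alone. The adipocyte markers Adipoq, Plin1 and Lep were below the filter. Cfd, an adipocyte marker that is also a complement gene, passed it. It was well above background on 3 wild-type high-fat arrays, 2 arrays of each low-fat group and 0 null high-fat arrays. Whether the RNA held adipocyte RNA was not tested. In RNA of a whole tissue, fewer cells of a type and less RNA per cell cannot be told apart. The brighter of the Cyp1b1 probes (A_51_P255456) gave -1.11 to 0.15 on the wild-type arrays and 0.65 to 1.68 on the null arrays. The targeted gene therefore read higher, not lower, in livers labelled null, and the sources used here do not say whether the probe lies in the deleted part, so it cannot check the labels. Null below means labelled null.

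The arrays were read in 3 scans, and scan 3 held 1 wild-type low-fat and 1 wild-type high-fat array but no null array. The Cy5 reference was well above background on 17284 to 19756 probes in the 6 arrays of scan 1, on 25126 to 25994 in the 4 arrays of scan 2 and on 22341 to 23725 in scan 3. Deviations from the group means were compared between arrays of different groups. Their median correlation was 0.38 between arrays of the same scan and -0.18 between arrays of different scans. These values are not independent, because the deviations within a group cancel. Differences within scans 1 and 2 are given below for the genes described in full. Saturated spots, whose ratios are bounds, were found in the reference of 14 members: Fgb on 9 arrays, C3 on 8, Hc, Cfb, F2, Fgg, Serpinc1 and Kng1 on 4 each, Cfi, C4bp, F10, Proc and Serpinf2 on 3 each and Plg on 1. The sample channel was saturated on 2 arrays in C3, F2, Fgb and Fgg and on 1 in Cfb, F10 and Serpinc1. Differences of these genes rest in part on such bounds.

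C8b and C8a encode the beta and alpha chains of C8, and C8g its small gamma chain. In the RefSeq annotation of GRCm38.p6, C8b and C8a are neighbouring protein-coding genes on chromosome 4, with no other such gene between them, and C8g is on chromosome 2. The signals of the 3 chains each came from 1 probe of 60 bases, printed here 5′ to 3′ in lower case because the result on C8 rests on these 3 spots. None of the 3 was saturated on any array.
C8b probe A_51_P151214: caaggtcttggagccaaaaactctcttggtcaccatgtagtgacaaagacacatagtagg
C8a probe A_51_P204247: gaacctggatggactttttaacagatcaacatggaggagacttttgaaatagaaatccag
C8g probe A_52_P370225: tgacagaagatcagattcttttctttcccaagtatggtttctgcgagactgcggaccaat

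The promoters of C8b and C8a are shown for the sites of liver transcription factors in them. Each is 300 bases, 250 before and 50 after the start of the gene, from RefSeq on GRCm38.p6, read along the strand of the gene, with matches on either strand in capitals. Searched were GTTAAT (an HNF1 half-site), TGTTTNC (a FOXA core), TTCNNNGAA (a STAT5 site), TTGCNNAA (a C/EBP site) and CAAAGTCCA (an HNF4 site), each on both strands. A C/EBP match can share the letters TTGC with a FOXA match.
C8b, chr4:104766067-104766366, plus strand: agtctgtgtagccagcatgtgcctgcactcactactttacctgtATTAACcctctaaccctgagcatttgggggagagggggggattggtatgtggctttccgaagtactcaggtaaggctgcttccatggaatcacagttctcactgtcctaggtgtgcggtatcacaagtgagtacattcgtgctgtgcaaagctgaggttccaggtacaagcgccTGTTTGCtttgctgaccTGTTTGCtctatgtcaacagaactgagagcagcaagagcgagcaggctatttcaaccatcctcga
C8a, chr4:104876349-104876648, minus strand: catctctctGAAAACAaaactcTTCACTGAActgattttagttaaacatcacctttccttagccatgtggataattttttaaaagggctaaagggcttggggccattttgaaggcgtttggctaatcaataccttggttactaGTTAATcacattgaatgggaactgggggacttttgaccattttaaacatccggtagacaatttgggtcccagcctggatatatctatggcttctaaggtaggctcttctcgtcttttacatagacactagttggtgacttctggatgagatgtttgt

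Both promoters held an HNF1 half-site and a FOXA core, C8b 1 and 2 of them and C8a 1 and 1, and C8a also held a STAT5 site. The 2 C8g windows of the annotation held none of the 5 motifs. Promoters were found for 29 of the 39 genes. Of these, 9 held the HNF1 half-site, against 7.10% of 32851 promoters of the same length, 10 the FOXA core (20.5%), 6 the STAT5 site (8.30%), 9 the C/EBP site (10.8%) and 0 the HNF4 site (0.475%). These counts describe letters in the windows and say nothing of binding.

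Between genotypes, the genes of the terminal pathway stood highest of the 9 role groups. In wild-type livers the median log2 ratio of the 6 terminal genes, C8b among them, was 0.11, 0.17 and 0.06 at low fat and 0.21, 0.11 and 0.27 at high fat. In null livers it was 0.86, 0.87 and 1.11 at low fat and 0.92, 0.93 and 1.36 at high fat. Every null array lay above every wild-type array. The median of the 6 genotype differences, taken over the mean of both diets, was 1.09, against -0.01 for all 14911 genes, and 6 of 6 were higher. So were 6 of 6 at each diet, except that in the sample channel alone C8g stood at -0.01 at high fat. That channel was normalized together with the reference, so its values are not free of it. Since C8b prompted the list and the genes share arrays, these counts are a description.

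**Figure D1:**
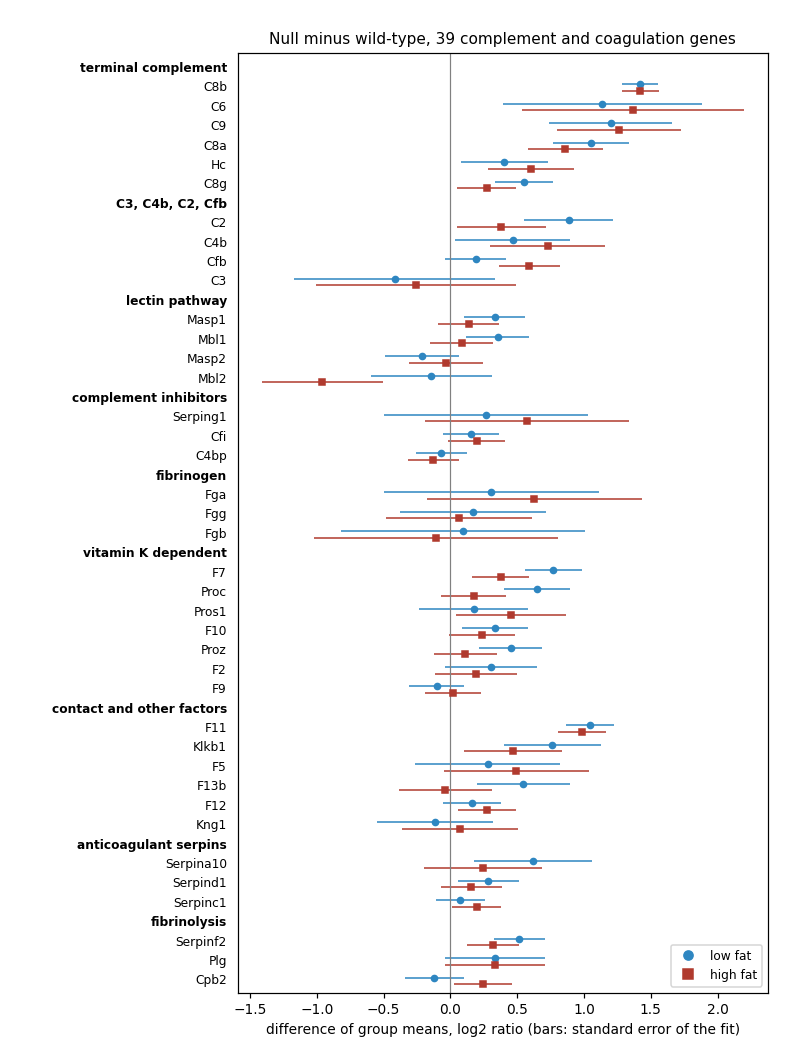
Difference of group means between null and wild-type livers for the 39 genes, on the log2 ratio scale, ordered by role. Circles are the low-fat and squares the high-fat comparison, 3 arrays against 3, and bars are the standard error of the fit. At each diet C8b, C6, C9, C8a and F11 lie farthest to the right, while C8g and Hc lie among the other genes. Mbl2 at high fat lies farthest to the left.

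C8b gave 0.19, 0.21 and 0.23 in wild-type low-fat livers and 0.06, 0.06 and 0.08 in wild-type high-fat livers. Null livers gave 1.59, 1.56 and 1.74 at low fat and 1.47, 1.30 and 1.70 at high fat. All 6 null arrays stood above all 6 wild-type arrays, with almost no spread among the latter. The difference was 1.42 at both diets, 2.67-fold at low fat and 2.68-fold at high fat (SE 0.14 on the log2 scale), and it lay between 1.23 and 1.53 within each scan and diet.

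C8a gave 0.02, 0.14 and -0.71 in wild-type low-fat livers and -0.71, 0.15 and -0.44 in wild-type high-fat livers. In null livers it gave 0.91, 0.64 and 1.07 at low fat and 0.40, 0.91 and 0.28 at high fat. The lowest null array, at 0.28, lay above the highest wild-type array, at 0.15, so C8a did not overlap between genotypes in either diet. Its difference was 1.05 (SE 0.28, 2.08-fold) at low fat and 0.86 (SE 0.28, 1.82-fold) at high fat, with limma's adjusted p = 0.362 and 1.00. Over the mean of both diets it was 0.96 (95% interval 0.52 to 1.40), with adjusted p = 0.103 over all genes. C8a thus missed the threshold of 0.05. It passed in the sample channel alone (adjusted p = 0.00194), with Agilent's processed signals (0.00801) and with no background correction (0.0437), and over all the alternatives its adjusted p ran up to 0.999. Within scans its difference was 0.83 and 0.77 at low fat and 1.05 and 0.75 at high fat, in scans 1 and 2 in turn.

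C8g gave -0.43, 0.50 and 0.15 in wild-type low-fat and 0.77, 0.67 and 0.47 in wild-type high-fat livers. It gave 0.81, 0.63 and 0.44 in null low-fat and 0.92, 0.78 and 1.02 in null high-fat livers. The low-fat groups overlapped, since the lowest null array was below the highest wild-type array. The high-fat groups did not, by a narrow margin (0.77 against 0.78). The difference was 0.55 (SE 0.22) at low fat and 0.27 (SE 0.22) at high fat, and 0.41 (95% interval 0.07 to 0.75, adjusted p = 0.474) over both diets. At low fat it was 0.96 within scan 1 and 0.31 within scan 2, and 0.30 without wild-type low-fat array 1. At high fat it was 0.20 and 0.12 within the same scans. The interval of the mean of both diets therefore ends below the difference that C8b or C8a had, while the difference between the genes themselves was not tested.

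C9 encodes the protein that lines the pore. It gave 0.92, -1.25 and -0.01 in wild-type low-fat and 0.37, 0.48 and 0.53 in wild-type high-fat livers. In null livers it gave 1.01, 1.10 and 1.15 at low fat and 1.95, 0.95 and 2.28 at high fat. No null array overlapped a wild-type array, but the wild-type low-fat arrays spread over more than 2 units. The difference was 1.20 at low fat and 1.26 at high fat, and 1.23 (SE 0.33, adjusted p = 0.220) over both diets. It passed the threshold without wild-type low-fat array 1, where it was 1.49 (adjusted p = 0.0349). At low fat it was 0.21 within scan 1 and 2.26 within scan 2, so its size there depended on the wild-type array it was set against.

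C6 encodes the component that binds C5b first. It was well above background on 11 arrays, and its spot on null high-fat array 1 was left out as non-uniform. It gave 1.73, 0.22 and 0.13 in wild-type low-fat and 1.36, -0.15 and 0.65 in wild-type high-fat livers. Null livers gave 0.40, 2.94 and 2.16 at low fat, and 0.97 and 3.00 on the 2 arrays left at high fat. The values followed the scan in every group, with the highest in scan 1. The difference was 1.25 over both diets (SE 0.56, adjusted p = 0.591), and 0.97 (SE 0.23, adjusted p = 0.115) with scan as a term of the fit. Within scans 1 and 2 it was 0.82 and 0.18 at low fat and 1.65 and 1.12 at high fat. Leaving out any 1 array moved it between 0.74 and 1.76.

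Hc, the mouse gene of C5, gave -0.39, -0.72 and -0.26 in wild-type low-fat and -1.03, -0.24 and -0.11 in wild-type high-fat livers. It gave 0.53, -0.76 and 0.08 in null low-fat and -0.09, 0.32 and 0.20 in null high-fat livers. The groups overlapped at low fat and parted narrowly at high fat. The difference was 0.50 over both diets (SE 0.23, adjusted p = 0.594). Within scans 1 and 2 it was 0.05 and 1.25 at low fat and 1.09 and 0.56 at high fat. Its reference was saturated on 4 of the 12 arrays, where the ratio is a bound. C7, the remaining terminal component, is on the array but was below the filter.

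**Figure D2:**
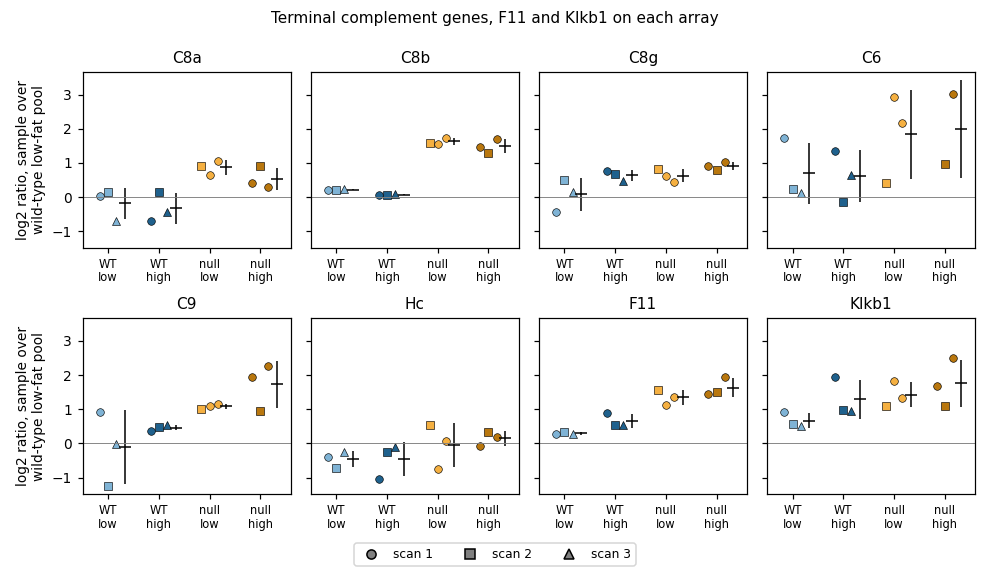
Log2 ratio of sample over the wild-type low-fat pool on each array for the 6 terminal complement genes, F11 and Klkb1. Each point is 1 array, its shape the scan, and the black bar beside each group is the mean with its SD (n = 3, or 2 for C6 in null high-fat livers). C8b and F11 separate the genotypes with little spread, C8a and C9 with more, and C6 also splits by scan.

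F11, factor XI, is the contact-phase protease that activates factor IX. Of the 38 members tested, C8b being left out, it alone passed. It gave 0.26, 0.34 and 0.28 in wild-type low-fat livers and 0.88, 0.53 and 0.54 in wild-type high-fat livers. In null livers it gave 1.56, 1.11 and 1.36 at low fat and 1.45, 1.51 and 1.94 at high fat. All 6 null arrays lay above all 6 wild-type arrays. Over the mean of both diets F11 rose by 1.02 (SE 0.13), 2.02-fold, with limma's Benjamini-Hochberg adjusted p = 0.00579 over 14911 genes. Of all genes 0.161% were higher past the threshold.

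At each diet alone F11 did not pass. Its difference was 1.05 (SE 0.18, adjusted p = 0.0954) at low fat and 0.98 (SE 0.18, adjusted p = 0.187) at high fat. Within scans it was 0.97 and 1.22 at low fat and 0.81 and 0.98 at high fat. With scan as a term it was 0.98 (adjusted p = 0.0250), when 0.644% of all genes passed. That fit called 0 members besides C8b at low fat alone, against 0.0939% of all genes, and 0 at high fat alone, against 0.0335%. It passed without any 1 array. It did not pass without both arrays of scan 3 (0.98, adjusted p = 0.102), with a robust variance trend (adjusted p = 0.0960) or with median centring in place of loess (1.44, adjusted p = 0.999), and its adjusted p over all alternatives ran from 0.00406 to 0.999.

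F11 and Klkb1 are neighbouring protein-coding genes on chromosome 8 in the same annotation. Klkb1 encodes prekallikrein, which with factor XII starts the contact system. The F11 probe and promoter are printed as those of the member that passed, the promoter with the same motifs in capitals.
F11 probe A_51_P502119: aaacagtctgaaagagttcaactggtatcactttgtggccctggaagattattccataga
F11, chr8:45261982-45262281, minus strand: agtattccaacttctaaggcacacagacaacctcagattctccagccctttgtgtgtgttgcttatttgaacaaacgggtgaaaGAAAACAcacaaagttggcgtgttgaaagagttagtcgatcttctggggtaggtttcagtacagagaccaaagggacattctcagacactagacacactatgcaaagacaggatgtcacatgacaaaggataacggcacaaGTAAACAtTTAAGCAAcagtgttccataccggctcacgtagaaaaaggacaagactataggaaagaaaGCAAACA

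The F11 window held 3 FOXA cores and 1 C/EBP site, and no HNF1 half-site. Klkb1 gave 0.91, 0.57 and 0.50 in wild-type low-fat and 1.94, 0.96 and 0.95 in wild-type high-fat livers. It gave 1.11, 1.83 and 1.34 in null low-fat and 1.67, 1.10 and 2.49 in null high-fat livers. The genotypes did not overlap at low fat and overlapped at high fat. The difference was 0.76 at low fat and 0.47 at high fat, with 0.62 (SE 0.26, adjusted p = 0.544) over both. Within scans it was 0.67 and 0.53 at low fat but 0.14 and 0.13 at high fat.

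Over all 39 genes, 32 were higher and 7 lower in null livers in the mean of both diets. The median difference was 0.31, against -0.01 over all genes. Median centring gave 38 higher and 1 lower with a median of 0.80, but there the median of all genes itself stood at 0.21. The other alternatives run gave 31 to 35 higher. At an unadjusted p under 0.05 there were 12 members besides C8b, all higher, against 4.21% of all genes higher and 4.19% lower at that level. These were C8a, C8g, C6, C9, Hc, C2, Cfb, F7, Proc, F11, Klkb1 and Serpinf2. Null and wild-type arrays, 6 of each, did not overlap in 3 members besides C8b (C8a, C9 and F11), all higher, against 0.403% of all genes higher and 0.309% lower without overlap. The complement genes had a median of 0.41, with 13 of 17 higher, and the coagulation and fibrinolysis genes 0.28, with 19 of 22 higher. Since the list was chosen with earlier results known, these counts are a description.

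At low fat 32 of 39 were higher, with a median of 0.33, and at high fat 33 of 39, with a median of 0.25. Median centring gave 39 and 38 higher, with the median of all genes at 0.33 and 0.08. Besides C8b, 0 members passed at low fat, where 0.0201% of all genes passed, and 0 at high fat, where 0.0134% did. At an unadjusted p under 0.05 limma gave 8 members besides C8b at low fat, all higher, against 3.43% of all genes higher and 3.76% lower. At high fat it gave 4, all higher, against 1.22% higher and 1.35% lower. In the sample channel alone, C8a and C2 passed at high fat. Arrays did not overlap at low fat in 7 members besides C8b, all higher (C8a, C9, C2, F7, F11, Proc and Klkb1), against 4.81% of all genes higher and 4.52% lower. At high fat they did not overlap in 9, all higher (C8a, C8g, C9, Hc, Cfb, F11, F12, Serpinf2 and Serpina10), against 3.65% higher and 4.09% lower. The dimmer probe of Serpina10 was lower in null livers at high fat, at -0.13.

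The members' median by scan was less even than these counts. At low fat it was -0.03 within scan 1, where 2 null arrays of slide 1 were set against 1 wild-type array of slide 2, and 0.59 within scan 2, with 1 array each. Slide and genotype cannot be told apart in the first of these. At high fat it was 0.25 within scan 1 and 0.12 within scan 2. With scan as a term the median over both diets was 0.28, with 31 higher.

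Of 6 hepatocyte markers, 4 were higher and 2 lower in null livers over both diets and 0 passed, with a median of 0.44, Cps1 of the urea cycle at 0.76 (SE 0.47) and Alb at -0.19 (SE 0.33). Their median over each array ran from -0.55 to 0.75 in wild-type low-fat, from -0.09 to 0.53 in wild-type high-fat, from 0.35 to 0.55 in null low-fat and from 0.25 to 0.91 in null high-fat livers. The median over the 39 members ran from -0.25 to 0.15, -0.18 to 0.12, 0.20 to 0.42 and 0.14 to 0.36 in the same groups. The marker medians thus overlapped between genotypes. Acute phase genes had a median of 0.46, with 9 of 14 higher and 0 past the threshold, and stellate cell markers one of -0.52, with 4 of 6 lower. The part of these in the members' values was not tested.

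Of the genes that lead to C3, C2 encodes the protease of the classical and lectin C3 convertase. It gave -0.31, -0.08 and -0.33 in wild-type low-fat and -0.86, 0.22 and -0.54 in wild-type high-fat livers. It gave 1.03, 0.17 and 0.74 in null low-fat and -0.48, 0.60 and -0.16 in null high-fat livers. The genotypes did not overlap at low fat and overlapped at high fat. The difference was 0.88 (SE 0.33) at low fat, 0.38 at high fat and 0.63 (SE 0.24, adjusted p = 0.460) over both. C2 passed in the sample channel alone (0.75, limma's adjusted p = 0.00270). Within scans 1 and 2 its difference was 0.77 and 1.11 at low fat and 0.54 and 0.38 at high fat. Its 2 probes gave 0.63 and 0.71 over both diets. The dimmer one gave 0.54 at low and 0.87 at high fat, so which diet had the larger difference depends on the probe.

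Cfb, factor B of the alternative convertase and the neighbour of C2 on chromosome 17, was at 0.39 (SE 0.16, adjusted p = 0.544), and at high fat its arrays did not overlap (0.59). Its reference was saturated on 4 arrays and its sample on 1, so both rest in part on bounds, and at low fat it was -0.45 within scan 1 and 0.61 within scan 2. C4b, which binds C2, was at 0.60 (SE 0.30, adjusted p = 0.657), and at 0.33 with scan as a term. C3, the protein at which the routes meet, was at -0.34 (SE 0.53, adjusted p = 0.931), but its reference was saturated on 8 arrays and its sample on 2, so its ratios are bounds on most arrays.

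The mannose-binding lectins Mbl1 and Mbl2 recognise microbial sugars, and the proteases Masp1 and Masp2 act with them. Of these 4 genes, 2 were higher and 2 lower. Mbl2 had the lowest difference of the 39, at -0.55 over both diets (SE 0.32, adjusted p = 0.725). It gave -1.24, 0.33 and -0.25 in wild-type low-fat, -0.78, 0.54 and -0.75 in wild-type high-fat and -0.25, -0.93 and -0.40 in null low-fat livers. In null high-fat livers it gave -1.62, -0.66 and -1.58. The null high-fat arrays were mostly low, but overlapped the wild-type high-fat arrays, with a difference of -0.96 (SE 0.45, adjusted p = 1.00). It was -0.82 within scan 1 and -1.20 within scan 2. Mbl1 was at 0.22 and Masp1 at 0.23, and the 3 probes of Masp2 ran from -0.12 to 0.41, so its sign depends on the probe.

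The complement inhibitors had differences between -0.10 for C4bp, the C4b-binding protein, and 0.42 for Serping1, the C1 inhibitor (SE 0.54, adjusted p = 0.911). That of Serping1 was 0.02 with scan as a term and, with 1 array left out, ran from 0.16 (wild-type low-fat array 2) to 0.79 (null high-fat array 2, and wild-type low-fat array 1 alike). Cfi, the protease that cuts C3b and C4b, was at 0.17.

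The vitamin K dependent factors were higher in null livers in 6 of 7, and in 6 or 7 under the alternatives run. F7, the protease that starts coagulation with tissue factor, gave -0.64, -0.25 and -0.99 in wild-type low-fat and -0.68, -0.06 and -0.47 in wild-type high-fat livers. It gave 0.24, 0.02 and 0.17 in null low-fat and -0.16, 0.15 and -0.07 in null high-fat livers. The groups did not overlap at low fat, and at high fat null arrays 1 and 3 lay just below wild-type array 2. The difference was 0.77 (SE 0.21) at low fat, 0.38 at high fat and 0.57 (SE 0.15, adjusted p = 0.220) over both. Within scans 1 and 2 it was 0.73 and 0.50 at low fat and 0.56 and 0.21 at high fat. Next to it on chromosome 8 lie F10, the prothrombin activator, at 0.28 (SE 0.17), and Proz at 0.28 (SE 0.17). Proc, the anticoagulant protein C, was at 0.41, with 0.90 and 0.20 at low fat and 0.19 and -0.10 at high fat within scans 1 and 2, and its cofactor gene Pros1 was at 0.31. F2, prothrombin, was at 0.25, with 1 wild-type low-fat spot left out as non-uniform. F9, factor IX, which factor XI activates, was at -0.04 (SE 0.15, adjusted p = 0.972), with opposite signs from its 2 probes.

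Besides F11 and Klkb1, the contact and cofactor genes had smaller differences for their error. F12, which starts the contact system, was at 0.22 (SE 0.15), F5, the cofactor of factor Xa, at 0.39 (SE 0.38), F13b at 0.25 (SE 0.24) and Kng1, kininogen, at -0.02 (SE 0.31). With scan as a term F12 was at 0.04, F5 at -0.16, F13b at 0.41 and Kng1 at -0.16. The anticoagulant serpins were higher in 3 of 3, in every alternative run, led by Serpina10, the protein Z dependent inhibitor, at 0.43 (SE 0.31, adjusted p = 0.799), whose 2 probes gave 0.43 and 0.05. At high fat these probes gave 0.25 and -0.13. Serpind1, heparin cofactor II, was at 0.22 and Serpinc1, antithrombin, at 0.14. Of the fibrinolysis genes, Serpinf2, the plasmin inhibitor, was at 0.42 (SE 0.14, adjusted p = 0.348), and between 0.16 and 0.45 within scans and diets. Plg, plasminogen, was at 0.34 and Cpb2 at 0.06, and with scan as a term they were at 0.07 and 0.18.

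The 3 fibrinogen chains are joined in 1 protein and their genes are neighbours on chromosome 3. They stood at 0.47 (Fga), 0.12 (Fgg) and -0.01 (Fgb) in null over wild-type livers, with standard errors of 0.57, 0.39 and 0.65. With scan as a term they stood at -0.01 (Fga), 0.32 (Fgg) and 0.34 (Fgb). Their means differed more between scans than between genotypes or diets. Fgb had a mean of -1.84 in scan 1 and 0.43 in scan 2, and Fgg of -0.78 and 0.40, while Fga went the other way, with 1.18 in scan 1 and -0.52 in scan 2. The Fgb reference was saturated on 9 of the 12 arrays and that of Fgg on 4, against 0 for Fga.

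Between scans 1 and 2 the means differed by over 1 on the log2 scale in 8 of the 39 members, 20.5%, against 3.34% of all measured genes. Fgb, C3, Fgg and Mbl2 were lower in scan 1, and Serping1, C6, Fga and C4b higher. Scans 1 and 2 each held arrays of all 4 groups. C8b, C8a, C8g and F11 were not among the 8, and the references of these 4 genes were saturated on 0 arrays.

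**Figure D3:**
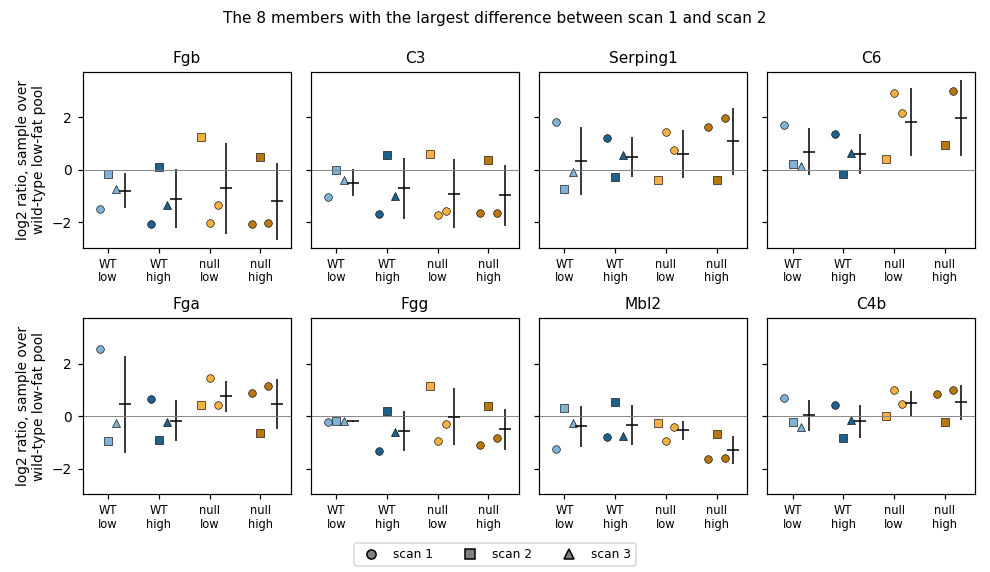
Log2 ratio on each array for the 8 members with the largest difference between the means of scans 1 and 2. Points are arrays, shapes are scans, and bars are group means with their SD. In every group of Fgb and C3 the scan 2 squares lie above the scan 1 circles, and in every group of Serping1, C6 and C4b below them.

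The next question was whether the diet moved the same genes. It asks about a factor on which the list was not built. In the mean of both genotypes 21 members were higher and 18 lower at high fat. Their median was 0.00, against 0.01 over all genes. In the sample channel alone 17 were higher and 22 lower. Of the 39, 0 passed limma's threshold, where 0.0335% of all genes did, and 2 had an unadjusted p under 0.05, both higher (C8g and F11), against 2.52% of all genes higher and 2.31% lower at that level. In wild-type livers 18 were higher and 21 lower (31 and 8 with median centring, where the median of all genes stood at 0.13), and 0 passed (0.00671% of all genes). Of the 39, 1 had an unadjusted p under 0.05 there, C8g, higher, against 1.81% of all genes higher and 2.21% lower. In null livers 20 were higher and 19 lower (14 and 25 with median centring), and 0 passed (0.00671%), with 0 at an unadjusted p under 0.05, against 1.91% of all genes in either direction.

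C8b stood at -0.14 at high fat over low fat in both genotypes (SE 0.14 each), with limma's adjusted p = 1.00. In wild-type livers this turned to 0.02 with median centring and to 0.08 in the sample channel alone. In wild-type livers its 3 high-fat arrays, at 0.06 to 0.08, lay below its 3 low-fat arrays, at 0.19 to 0.23. C8a was at -0.15 in wild-type and -0.34 in null livers (SE 0.28), with signs that turned in some alternatives. C8g was at 0.56 in wild-type (SE 0.22) and 0.28 in null livers. The largest diet difference in the mean of both genotypes was that of C9, at 0.61 (95% interval -0.11 to 1.33, adjusted p = 1.00), while within wild-type livers it was -0.55 in scan 1 and 1.74 in scan 2.

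At high fat over low fat, wild-type livers had Klkb1 at 0.62 and F11 at 0.35, and null livers had them at 0.33 and 0.29. Both genes were higher at high fat with no overlap in wild-type livers, where 3.55% of all genes were. In null livers they overlapped. F13b, the carrier chain of factor XIII, was at 0.73 (SE 0.35) in wild-type and 0.14 in null livers. F9 was lower without overlap in wild-type livers, at -0.34 (SE 0.21), as 3.69% of all genes were, C8b among them. Cfi was lower without overlap in null livers, at -0.22 (SE 0.21), against 2.53% of all genes lower and 2.30% higher.

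The fibrinogen genes were lower at high fat in 3 of 3, with Fga at -0.46, Fgg at -0.43 and Fgb at -0.40 in the mean of both genotypes (SE 0.57, 0.39 and 0.65), and 0 passed. When array 1 of either low-fat group was left out, 2 of 3 were lower. C2 stood at -0.16 in wild-type and -0.66 in null livers (SE 0.33), and Mbl2 at 0.06 and -0.76 (SE 0.45). The dimmer probe of C2 gave -0.56 in wild-type and -0.24 in null livers. Serping1 was at 0.32, Serpinc1 at 0.21, Serpinf2 at 0.25 and F9 at -0.28 over both genotypes. Acute phase genes were lower at high fat in 10 of 14, with a median of -0.55 and 0 past the threshold, and hepatocyte markers had a median of 0.14.

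**Figure D4:**
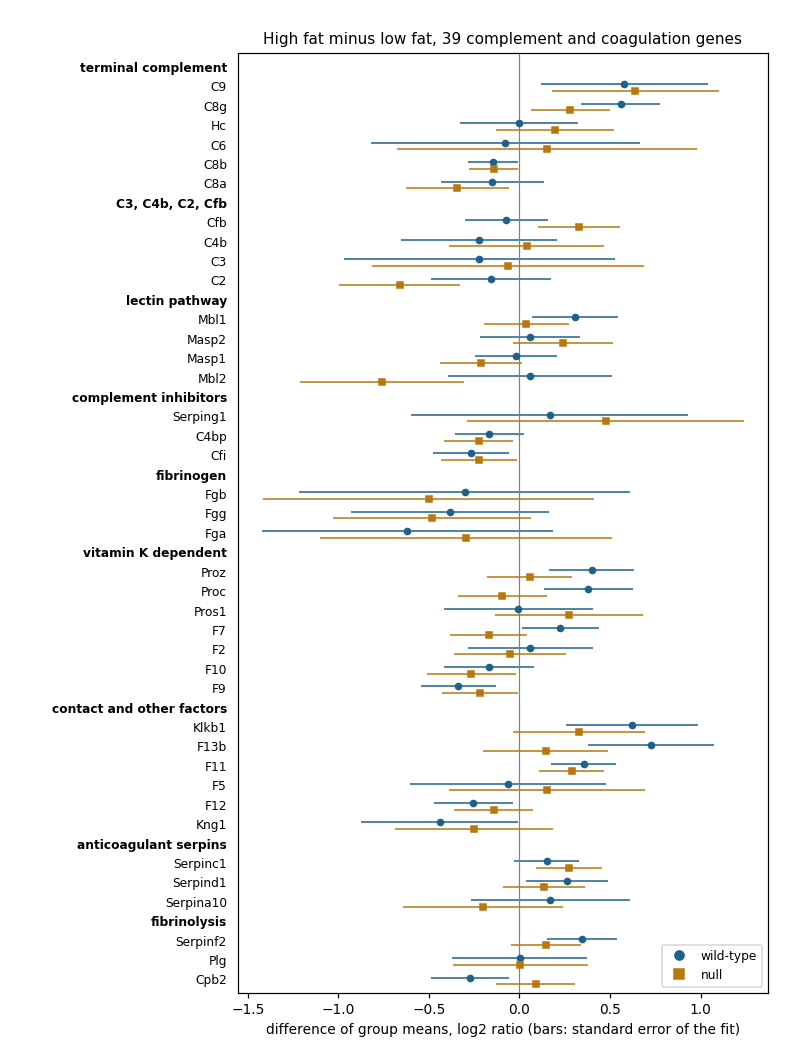
Difference of group means between high-fat and low-fat livers for the 39 genes, on the log2 ratio scale, ordered by role. Circles are wild-type and squares null livers, 3 arrays against 3, and bars are the standard error of the fit. The differences lie on both sides of 0 in most roles, and the 3 fibrinogen genes are below 0 in both genotypes with wide bars.

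The interaction tested whether a genotype difference depended on the diet. Of the 39 members 19 had a positive and 20 a negative interaction, with a median of -0.06. Median centring gave 3 and 36, with the median of all genes at -0.21. Besides C8b, 0 members passed limma's threshold, as 0% of all genes did, and 0 had an unadjusted p under 0.05, against 0.899% of all genes. The largest were those of Mbl2 (-0.82, SE 0.64), F13b (-0.58, SE 0.49), C2 (-0.51, SE 0.47), Proc (-0.48, SE 0.35) and Cfb (0.40, SE 0.32), with adjusted p = 1.00 for each. The dimmer probe of C2 gave an interaction of 0.33, so its sign depends on the probe. The genotype difference of C8b differed by 0.00 between diets, given as a description with no test. That of C8a differed by -0.19 (95% interval -1.07 to 0.69), that of C8g by -0.28 and that of F11 by -0.06 (SE 0.25).

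Other genes of the same systems were listed too. Of 29 further complement genes listed, receptors, C1 subunits and regulators among them, 22 were measured, 14 were higher and 0 passed between genotypes, with a median of 0.14. C1rb and C1ra, copies of the C1r protease that near-identical sequence makes hard to tell apart, were at 0.65 (SE 0.18) and 0.60 (SE 0.11), with adjusted p = 0.241 and 0.0677, and C1ra did not overlap between genotypes. Cfd, factor D, was not well above background on any of the 3 null high-fat arrays, and on 2 of 3 in each low-fat group, so no size is given for it. Of 27 further coagulation genes 21 were measured, 10 were higher and 0 passed, with a median of -0.02. F2r, the thrombin receptor, was at 1.06 (SE 0.24, adjusted p = 0.145), Anxa2, a plasminogen receptor subunit, at -0.68 (SE 0.33) and Vwf, the platelet adhesion protein of endothelium, at -0.66 (SE 0.40).

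Of 24 liver regulators, transcription factors and hormone receptors that act on these genes among them, 22 were measured, 11 were higher and 11 lower, and 0 passed, with a median of 0.00. Bcl6, a repressor with male-biased expression in liver, was at 1.00 (SE 0.66, adjusted p = 0.757), Cebpd at -0.69 (SE 0.41) and Foxa3 at 0.56 (SE 0.16, adjusted p = 0.263). Between diets 0 of these 3 lists' genes passed either. In the mean of both genotypes the largest differences were those of Cd59a, an inhibitor of the terminal pore, at 0.53 (SE 0.14, adjusted p = 0.470), Mug1, a murinoglobulin protease inhibitor, at 0.42, and Stat3, the effector of interleukin-6, at -0.57 (SE 0.19, adjusted p = 0.726).

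The authors' deposited table gives differences of group means per spot for 3 of these comparisons. Of the 39 genes, 34 were higher in null livers at low fat in the authors' deposited table, with a median of 0.42, and 34 at high fat, with a median of 0.28. C8b in the authors' deposited table stood at 1.54 and 1.44, C8a at 0.81 and 1.13, C8g at 0.47 and 0.20, and F11 at 1.17 and 1.01 at low and high fat. For the diet in wild-type livers the authors' deposited table had 17 of 39 higher.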

How the data were processed

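The deposited spot values are mean pixel intensities and median local background intensities of both colours from Agilent's Feature Extraction, per the file headers. The same files carry the authors' processed intensities and log10 ratios of red over green. In the deposited table of the authors, differences of group means are on the log2 scale, and the submitters' processing notes name limma for it. On all 43379 spots it equalled, to a tolerance of 1e-06, what the scanner's log10 ratios give as log2 of Cy3 over Cy5.

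Values were computed again in R 4.3.3 with limma 3.58.1: normexp background correction with an offset of 50, loess within arrays, and log2 of Cy3 over Cy5. Spots marked non-uniform were left out and saturated spots kept. The filter kept 21490 of 41174 probes, those whose sample channel was well above background throughout 1 group or more, and 14911 genes took the brightest of their kept probes. Probes were named by accession (24844), current symbol (6045) or older symbol (1810) through RefSeq of GRCm38.p6, and 8475 kept the file's name. The 39 genes had 57 probes, 54 of them measured. Of the 12 with several, 3 had probes of opposite sign between genotypes.

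Limma fitted 1 mean per group over all 12 arrays, with 8 residual degrees of freedom and 3.16 from the prior. P-values were adjusted by Benjamini-Hochberg over the 14911 genes, at a threshold of 0.05. Members, roles and other lists were chosen with earlier results of these data known. Named are the 3 C8 chains, members past the threshold, the 5 largest differences in each comparison, the leading member of each role, and the 3 largest of each other list. Members added beyond that rule complete their role. The number of arrays limits the precision. Labelling used one of 2 kits by RNA amount, and which sample had which is not given. The steps were tested on simulated data. Same-numbered replicates had a median correlation of deviations of -0.01 over 18 pairs, with a range from -0.58 to 0.57. Some of these pairs share a scan and some do not, so this cannot settle whether the numbers pair samples. The main fit used no pairing. Alternatives changed the background correction, normalization, probe filter, probe rule, variance model and block (scan, slide or replicate number), or left out arrays. The sample channel alone was taken after loess on the ratios and quantile normalization of the mean intensity of both colours. The reference entered both of these steps.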

Additional observations from a re-analysis of the deposited data

How the results depend on the processing

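Counts of members past the threshold, C8b left out, were recomputed in up to 26 alternatives. In the mean of both diets the count was 1 and became 2 with no background correction, 2 with Agilent's processed signals, 4 in the sample channel alone, and 0 with median centring, with a robust variance trend and without the 2 arrays of scan 3, an alternative chosen after seeing the data. It lay between 1 and 2 with 1 array left out, 2 without wild-type low-fat array 1, when C9 joined F11. At high fat it was 0, and 2 in the sample channel alone. The other comparisons stayed at 0 in the alternatives run. With the replicate number as a block the count was 1 in the mean of both diets and 0 elsewhere. The cause of these changes was not tested.

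Over all genes, the 43 called in the mean of both diets became 25 with the replicate block, 96 with scan as a block, 113 with no background correction or without wild-type low-fat array 1, 237 with processed signals, 264 in the sample channel alone, 21 with a robust trend, 8 without scan 3 and 1 with median centring, and lay between 19 and 113 with 1 array left out. At low fat the 3 genes became 0 to 49, at high fat the 2 became 0 to 50, and for the diet the 1 in wild-type, 1 in null and 5 in the mean of both became 0 to 5, 0 to 3 and 0 to 30. Over 63 differences of named members, 50 kept their sign in every alternative, and 1570 of 1600 recomputed values did. Part of this was fixed in advance, because some alternatives cannot change a difference. These were the robust trend, quantile normalization of intensities and the fit of only the groups compared. For genes with no spot left out, the replicate block cannot change a difference, nor scan as a block one between diets or the interaction. Leaving out an array of a group not compared cannot change a difference either. Saturated references limit the ratios of 14 members, those of Fgb and C3 on most arrays.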
